A study of Mus musculus with 73 samples.

Results

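The 8 hormone and granule genes *Chga*, *Chgb*, *Cck*, *Gip*, *Sct*, *Reg4*, *Pyy* and *Gcg* of enteroendocrine cells were taken by name, with no measured value used to choose them. All 8 are listed among the 17399 genes of the epithelium table and among the 21058 genes of the single-cell table. Epithelium of the mouse jejunum was collected 48 h after diphtheria toxin (DT) from 4 mice and at the same time from 4 control mice given saline. All 8 mice were 4 months old and carried Lgr5(GFP-ires-DTR/+), an allele that expresses GFP and the toxin receptor from the *Lgr5* locus. The promoter is active both in telocytes of the villus tip and in crypt base stem cells, so the model removes both kinds of cell. Single cells were sorted into 384-well plates by 9 gates from 8 C57BL/6 mice 3 months old. Stroma of the crypt, villus bottom, villus center and villus tip was microdissected from C57BL/6 mice of the same age.

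Enteroendocrine cells are scattered secretory cells of the gut epithelium that sense nutrients and release peptide hormones into the blood. They arise from crypt progenitors through *Neurog3*, and each cell makes a few hormones that can change as it moves up the villus. The peptides are made as precursors, cut by convertases and stored in dense core granules with the granins, so that *Chga* and *Chgb* are used as general markers of the lineage. *Gip* (glucose-dependent insulinotropic polypeptide) is the product of K cells, *Cck* (cholecystokinin) of I cells and *Sct* (secretin) of S cells, whereas *Gcg* and *Pyy* mark L cells. *Reg4* encodes a lectin made by enteroendocrine and some other secretory cells.

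The stretches of 250 bases before the RefSeq start (GRCm38.p6) are shown for *Gip*, *Sct* and *Cck*, whose ratios to the granin *Chgb* did not overlap between control and DT, and for the granin *Chga*, whose ratio did. They run 5′ to 3′ on the strand of the gene. The capitals mark a cAMP response element core, TGACG, on either strand. They also mark the letters GATAA, bound by GATA factors, on either strand.
Gip: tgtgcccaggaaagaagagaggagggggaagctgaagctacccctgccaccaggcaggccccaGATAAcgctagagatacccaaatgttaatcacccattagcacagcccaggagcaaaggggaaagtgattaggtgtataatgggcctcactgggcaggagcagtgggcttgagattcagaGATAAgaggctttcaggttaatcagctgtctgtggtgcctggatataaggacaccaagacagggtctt
Sct: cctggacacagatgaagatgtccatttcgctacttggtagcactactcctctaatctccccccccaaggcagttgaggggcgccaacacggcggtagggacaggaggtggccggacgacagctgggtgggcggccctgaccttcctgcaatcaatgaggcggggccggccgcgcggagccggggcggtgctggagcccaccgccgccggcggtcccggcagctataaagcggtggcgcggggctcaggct
Cck: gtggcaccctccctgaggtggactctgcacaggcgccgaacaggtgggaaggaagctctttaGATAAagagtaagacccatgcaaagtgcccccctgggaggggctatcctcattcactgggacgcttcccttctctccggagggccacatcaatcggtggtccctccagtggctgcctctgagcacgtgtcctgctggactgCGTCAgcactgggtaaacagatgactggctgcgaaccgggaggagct
Chga: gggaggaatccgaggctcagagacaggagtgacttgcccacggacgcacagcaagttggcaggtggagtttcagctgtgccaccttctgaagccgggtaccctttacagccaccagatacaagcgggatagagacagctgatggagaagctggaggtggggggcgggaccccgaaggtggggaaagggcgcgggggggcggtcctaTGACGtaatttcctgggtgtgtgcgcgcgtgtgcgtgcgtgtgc
These lie at chr11:96024295-96024544 on the plus strand for *Gip*, chr7:141279134-141279383 on the minus strand for *Sct*, chr9:121495695-121495944 on the minus strand for *Cck* and chr12:102554691-102554940 on the plus strand for *Chga*. TGACG stood in the stretch of *Chga*, *Chgb* and *Cck*, 3 of the 8 members, against 17.8% of all 32851 promoters of this length. GATAA stood in *Cck*, *Gip* and *Reg4*, likewise 3 of 8, against 22.6% of all promoters. In *Gip* it occurred at 187 and 68 bases before the start, and in *Cck* at 188 bases. The E-box letters CANNTG, which the neurogenic factors read, were present in all 8 members and in 66.2% of all promoters. These matches describe letters only. None of the 8 genes overlaps another gene in GENCODE M21.

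The epithelium libraries held between 748458 and 4210158 UMIs, each UMI standing for a captured mRNA molecule. Replicates 1 and 2 of both groups form batch a and replicates 3 and 4 batch b, as given in the study's supplementary table of UMI counts and not in the sample labels. *Lgr5*, the gene whose locus carries the toxin receptor, was at 45.0, 77.3, 10.7 and 24.5 CPM (UMI counts scaled to a common library total by TMM) in control libraries 1 to 4 and at 47.2, 33.0, 6.30 and 12.6 CPM in DT libraries 1 to 4. Its ranges overlapped, with an edgeR adjusted p of 0.259. Across the 8986 genes tested, 32 passed an adjusted p of 0.05 with batch as a term, 30 of them lower after DT (0.334% of the genes tested) and 2 higher (0.0223%), or 0.356% in either direction. With the replicate number as a block in place of batch, 3 genes passed.

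The first question was whether the hormone genes differed between epithelium of mice given DT and of controls. None of the 7 members tested passed the adjusted p of 0.05, by which 0.334% of all genes were lower, and all 7 had a log2 fold change below 0, with a median of -0.39 against 0.00 over all genes. *Gip*, at 45.8% of its control level, had the largest difference and an adjusted p of 0.0506, followed by *Sct* at 50.6% and *Cck* at 60.8%. The granins *Chga* and *Chgb* were at 79.5% and 85.1% of control. *Pyy* was too rare to be tested. DESeq2 called *Gip* and *Sct* lower, with adjusted p of 0.000105 and 0.00924, and called 159 of all genes in either direction. The edgeR fit without a filter on low counts called the same 2 members and 635 of 15502 genes. With the replicate block the edgeR adjusted p was 0.144 for *Gip* and 0.237 for *Sct*. Without a batch term it was 0.375 and 0.723. In the main fit at a looser adjusted p of 0.2, *Gip* and *Sct* were called lower, 2 of 7 members, where 1.66% of all genes were. By unadjusted p, 3 of 7 members were under 0.05 and lower (*Gip*, *Sct* and *Cck*), against 8.44% of all genes. A bulk library cannot tell fewer enteroendocrine cells from less hormone mRNA in each cell.

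**Figure D1:**
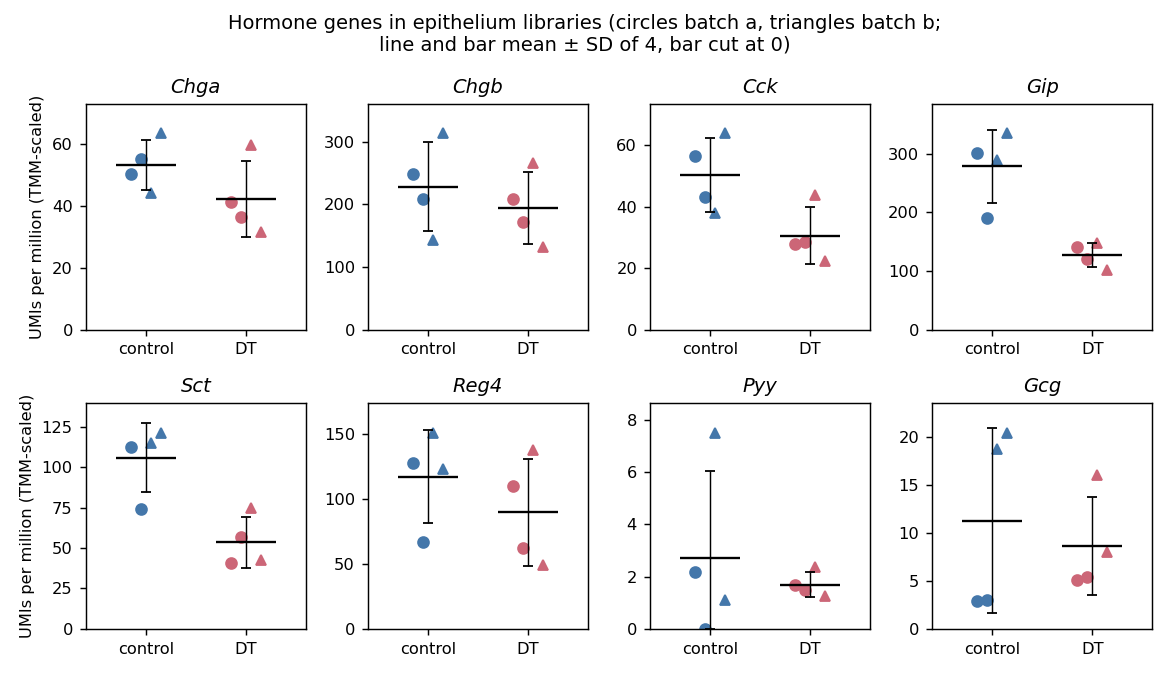
Level in CPM, scaled by TMM, of the 8 genes in each epithelium library, as points for 4 control and 4 DT mice, with circles for batch a, triangles for batch b and the mean ± SD as line and bar. For *Gip* the DT libraries end at 148 CPM and the control libraries begin at 190 CPM, whereas the groups of the other genes overlap.

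*Gip*, the incretin of K cells, was at 302, 190, 289 and 335 CPM in control libraries 1 to 4 and at 141, 120, 148 and 102 CPM in DT libraries 1 to 4. All 4 DT libraries lay below the lowest control library, a separation shown by 1 of the 7 members tested and by 1.87% of all genes. The group means were 279 ± 62.4 CPM for control and 128 ± 20.7 CPM for DT (SD, n = 4 each). The fitted log2 fold change was -1.13 with a standard error of 0.21 and a 95% interval of -1.59 to -0.66. In UMIs, 3043 were counted in the control libraries and 1217 in the DT libraries, so counting noise was small beside the spread between mice. Leaving out each library in turn moved the log2 fold change between -1.28 and -0.99 and the edgeR adjusted p between 0.0141 and 0.182. It passed 0.05 once, without control library 2, which had the fewest UMIs and the lowest control level of *Gip*.

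*Sct*, the precursor of secretin, which drives bicarbonate release from the pancreas, was at 112, 74.3, 115 and 121 CPM in control libraries 1 to 4. In DT libraries 1 to 4 it was at 40.5, 56.5, 74.6 and 42.5 CPM. The groups touched at a single point, where DT library 3 stood just above control library 2. The means were 106 ± 21.4 and 53.5 ± 15.7 CPM (SD, n = 4 each), and the log2 fold change was -0.98 with a standard error of 0.22 and an adjusted p of 0.0908 from edgeR.

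*Cck*, which triggers gallbladder contraction and satiety, was at 56.6, 43.1, 37.8 and 64.0 CPM in control libraries 1 to 4 and at 27.8, 28.5, 43.8 and 22.3 CPM in DT libraries 1 to 4. DT library 3 lay above 2 of the control libraries, and the other DT libraries lay below all of them. The log2 fold change was -0.70 with a 95% interval of -1.25 to -0.16 and an edgeR adjusted p of 0.232.

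The granins had smaller differences with intervals that crossed 0. *Chga*, a granule protein, was at 50.1, 55.0, 43.99 and 63.4 CPM in control libraries 1 to 4 and at 41.3, 36.4, 59.6 and 31.5 CPM in DT libraries 1 to 4. *Chgb*, its relative, was at 248, 208, 143 and 313 CPM in control and at 208, 171, 266 and 131 CPM in DT. Both granins were highest in control library 4 and, among DT libraries, in library 3. The log2 fold change was -0.31 with a 95% interval of -0.80 to 0.18 for *Chga* and -0.23 with an interval of -0.83 to 0.37 for *Chgb*. The interval of *Gip*, -1.59 to -0.66, overlapped both. Whether *Gip* differed from the granins in its fold change was not tested in this fit. Without control library 4 the value of *Chgb* was 0.02.

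*Reg4*, the lectin, was at 128, 66.9, 151 and 122 CPM in control libraries 1 to 4 and at 110, 62.5, 138 and 49.2 CPM in DT libraries 1 to 4. These groups overlapped widely, with a log2 fold change of -0.39 and an interval of -1.09 to 0.31. The L cell genes were rare. *Gcg*, whose precursor yields GLP-1, had 4, 2, 82 and 75 UMIs in control libraries 1 to 4 and 6, 11, 61 and 19 UMIs in DT libraries 1 to 4. In control libraries it stood at 2.90 and 2.97 CPM in batch a and at 18.7 and 20.4 CPM in batch b, a larger gap than the one between control and DT, whose log2 fold change was -0.34 with an interval of -1.07 to 0.40. *Pyy*, the peptide that slows gut transit, had 3, 0, 33 and 4 UMIs in control and 2, 3, 9 and 3 UMIs in DT. Control library 3 alone held most of its UMIs, and without a filter on low counts the edgeR adjusted p was 0.576.

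The 3 hormones lowest in the fit of both batches had a log2 fold change below 0 in each batch. As they were picked from the same libraries, this is no test of the difference. Within batch a the log2 fold change was -0.92 for *Gip*, -0.94 for *Sct* and -0.83 for *Cck*, and within batch b it was -1.33, -1.02 and -0.61. No value passed the adjusted p of 0.05 within a batch of 2 against 2 libraries. *Gcg* turned direction between the batches. In batch a, where it was too rare to be fitted, it was at 2.90 and 2.97 CPM in control and at 5.06 and 5.41 CPM in DT, and in batch b its log2 fold change was -0.67. The interaction of DT with batch was called for 0 of 8986 genes by edgeR, with 223 genes at an unadjusted p under 0.05 and none of the 7 members among them, the lowest being *Gcg* at 0.0669.

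**Figure D2:**
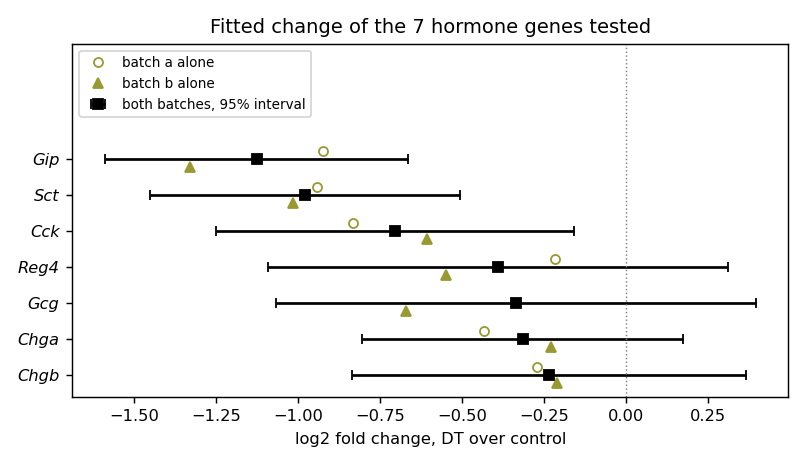
Fitted log2 fold change of DT over control for the 7 hormone genes tested, with 95% intervals as bars, and the values within each batch as circles and triangles. *Gip*, *Sct* and *Cck* have intervals that end below 0 (at -0.66, -0.51 and -0.16), and those of the other 4 genes include 0.

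To set the hormones against the lineage markers, the UMIs of each gene were divided by the UMIs of *Chgb* in the same library, which removes the library total and TMM from the value. This ratio was chosen after the values had been seen. Per *Chgb* UMI, *Gip* was at 1.22, 0.914, 2.02 and 1.07 in control libraries 1 to 4 and at 0.676, 0.701, 0.556 and 0.779 in DT libraries 1 to 4. All DT ratios lay below all control ratios.

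*Sct* was at 0.453, 0.357, 0.804 and 0.388 per *Chgb* UMI in control and at 0.194, 0.331, 0.281 and 0.324 in DT. *Cck* was at 0.228, 0.207, 0.264 and 0.204 in control and at 0.134, 0.167, 0.165 and 0.170 in DT. Both were separated as *Gip* was. This held for 3 of the 6 members with a ratio, against 0.378% of all genes divided in the same way. In CPM, without the divisor, 1.87% of all genes were separated, so the background depends on the divisor. As the divisor was chosen after the values were seen, the contrast is not a test of the members. On the log2 scale the ratio differed by -0.89 for *Gip*, -0.78 for *Sct* and -0.51 for *Cck*. The same 3 genes were separated when *Chga* and *Chgb* together were the divisor.

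*Chga* per *Chgb* UMI did not separate, with 0.202 to 0.307 in control and 0.198 to 0.240 in DT. Nor did *Reg4*, with 0.321 to 1.05 in control and 0.365 to 0.526 in DT. Control library 3 had the highest ratio of every gene divided, *Gip*, *Sct*, *Cck*, *Chga*, *Reg4* and *Gcg*, and the lowest control level of *Chgb*, 143 CPM. Leaving this library out could not break the separation of the 3 hormones, which rests on the lowest control ratio. For *Sct* the lowest control ratio was 0.357, in control library 2, and the highest DT ratio was 0.331, in DT library 2. The log2 difference of the ratio was -0.62 in batch a and -1.16 in batch b for *Gip*, -0.67 and -0.89 for *Sct*, and -0.54 and -0.47 for *Cck*.

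**Figure D3:**
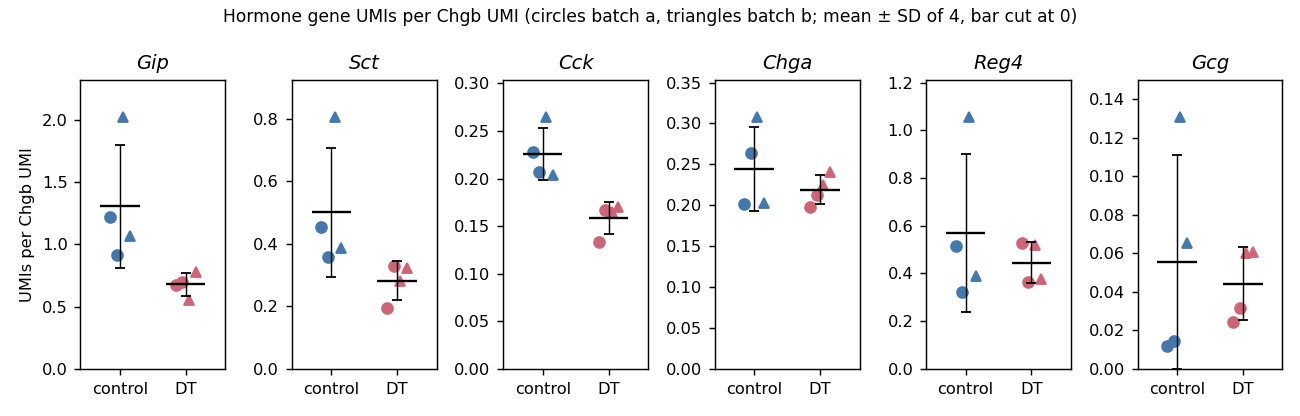
UMIs of 6 hormone genes per UMI of *Chgb* in each epithelium library (circles batch a, triangles batch b, line and bar mean ± SD of 4 mice per group). The highest DT ratio is below the lowest control ratio for *Gip* (0.779 and 0.914), *Sct* (0.331 and 0.357) and *Cck* (0.170 and 0.204), and the groups overlap for *Chga*, *Reg4* and *Gcg*.

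Other genes of the enteroendocrine lineage did not pass the test in either direction. Of the other gut hormones, 4 of 12 were tested and 0 passed. *Sst* (somatostatin, of D cells) was at 46.1 CPM in control and 29.4 CPM in DT on average, *Nts* (neurotensin, of N cells) at 32.7 and 21.9 CPM, and *Ghrl* (ghrelin, of X cells) at 27.5 and 21.8 CPM. *Nucb2* (nesfatin), the rarest of the 4, was at 8.51 CPM in control and 11.5 CPM in DT, with a log2 fold change of 0.33. The ranges of the sums over all 12 hormones overlapped, with 44.6 to 196 CPM in control and 68.3 to 136 CPM in DT. Among 13 genes of prohormone processing and granules, 6 were tested, 2 of them the granins above, and 0 passed. *Pam*, which amidates peptides, had a log2 fold change of 0.05. *Cpe*, a carboxypeptidase that trims prohormones and is named here after its value was seen, was at -0.71 with an edgeR adjusted p of 0.232. Of 7 genes for serotonin synthesis and storage, 3 were tested and 0 passed, with *Ddc*, the decarboxylase, at a log2 fold change of -0.45, *Gch1*, which makes the cofactor of the hydroxylase, at 0.17 and *Slc18a1*, a monoamine transporter of granules, at -0.08.

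Of 16 transcription factors of the lineage only *Sox4* was frequent enough to be tested, with a log2 fold change of 0.10. *Neurog3*, the factor that commits progenitors to the lineage, had 43 UMIs in all control libraries and 77 in all DT libraries and failed the filter. None of the 12 nutrient sensing receptors was frequent enough. Of the 12 exocytosis genes 3 were tested and 0 passed. The log2 fold change was 0.06 for *Rab3d*, a granule GTPase, -0.19 for *Cacna1a*, a calcium channel, and -0.76 for *Vamp2*, a vesicle protein, with an adjusted p of 0.246 from edgeR for the last.

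Of 17 genes for hormone receptors and peptide degradation, 5 were tested, 0 passed and all 5 were below 0, with a median log2 fold change of -0.62. These 5 are membrane peptidases and none is a receptor. The log2 fold change was -0.91 for *Mme* (neprilysin), -0.84 for *Enpep* and -0.62 for Anpep. *Dpp4*, the protease that inactivates GIP and GLP-1, named after its values were seen, was at 468 CPM in control and 320 CPM in DT, with an edgeR adjusted p of 0.232. Receptors were almost absent from this epithelium, with 1 UMI of *Gipr* in the control libraries and 3 in the DT libraries, 1 and 1 of *Glp1r*, and 0 of *Cckar*.

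Some markers of other secretory cells fell beside the hormone values. Of 5 tuft cell genes tested, 4 fell after DT (*Dclk1*, *Rgs13*, *Sh2d6* and *Trpm5*, with log2 fold changes of -3.31 to -2.61 and edgeR adjusted p of 0.0288 to 0.0341), and the summed level of the 9 tuft genes listed was 72.8 to 123 CPM in control and 19.8 to 42.2 CPM in DT. Of 6 Paneth cell genes tested, 2 fell (*Itln1* and *Mptx2*, with log2 fold changes of -2.12 and -2.76), and the summed levels were 1092 to 3233 CPM in control and 336 to 765 CPM in DT. Of 9 goblet cell genes tested 0 passed. Of 10 enterocyte genes 2 fell, the tip genes *Ada* and *Nt5e* at log2 fold changes of -2.06 and -2.66. The summed level of the hormone genes themselves was 640 to 1042 CPM in control and 388 to 748 CPM in DT. Immune genes did not pass the test, but all 10 were below 0, with a median log2 fold change of -0.54 and summed levels of 328 to 2093 CPM in control and 174 to 1212 CPM in DT. Proliferation genes did not pass it either, and all 8 were above 0, with a median of 0.36 and summed levels of 552 to 832 CPM in control and 758 to 999.8 CPM in DT. With the replicate number as a block, 2 of the 8 marker genes that fell kept an edgeR adjusted p under 0.05 (*Nt5e* at 0.0114 and *Mptx2* at 0.0378), and those of the other 6 were 0.0624 to 0.0949. The part of these other cell types in the hormone values was not tested.

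The second question was whether the hormone genes were detected in the sorted single cells. Of 12346 wells, 2347 cells had 400 to 8000 UMIs and at least 250 genes, and clustering without the enteroendocrine genes called 1666 of them epithelial-like from markers such as *Epcam*. The labels and the cells did not match throughout, since 889 of the 1424 kept cells of the PDGFRa singlet gate were epithelial-like. A further 146 cells in a cluster led by the vessel genes *Fabp4* and *Plvap* stayed unnamed. All 384 well barcodes recur on several plates by design, and no 2 kept cells had the same counts.

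Hormone genes were found in few cells and mostly as single UMIs. At least 1 member had a UMI in 118 kept cells, of which 110 held 1 member, 6 held 2, 1 held 3 and 1 held 4. The share was 6.48% of epithelial-like cells (108 of 1666, exact binomial 95% interval 5.35% to 7.77%), 0.896% of 335 mesenchymal-like cells and 0.5% of 200 immune-like cells, a class that should lack these genes. Median depths were 1560, 1020 and 666.5 UMIs in these classes. With each cell thinned to 400 UMIs, the expected shares were 1.91%, 0.443% and 0.0547%. Intervals and limits cover counting error only, and cells of a mouse are not replicates.

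By gene, *Sct* had a UMI in 52 epithelial-like cells (3.12%), 36 of them with a single UMI, and *Chga* in 41 cells (2.46%), 38 of them with a single UMI. Such single UMIs were spread over deep cells, since the median depth was 2454 UMIs for cells with *Sct* and 3109 UMIs for cells with *Chga*. *Gip* was found in 11 cells (0.660%), *Reg4* in 6 (0.360%), *Chgb* in 5 (0.3%), *Cck* in 3 (0.180%) and *Gcg* in 1 (0.0600%). *Pyy* was found in 0 of 1666 cells, and a count of 0 limits the share of cells with a *Pyy* UMI to 0.180%, which at this depth sets no limit on the share of cells that express it. Outside the epithelial-like class, *Gip* occurred in 1 mesenchymal-like, 1 immune-like and 1 unnamed cell, *Sct* in 2 mesenchymal-like and 1 unnamed cell, and *Chga* in 4 unnamed cells, whereas *Chgb*, *Cck*, *Reg4* and *Gcg* occurred in none.

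*Reg4* and *Sct* were also seen where other secretory genes led. In the cluster of 37 cells led by defensin genes, 8 cells (21.6%, exact binomial interval 9.83% to 38.2%) held a member, 4 of them *Reg4* and 3 *Sct*. In the cluster of 26 cells led by goblet genes such as *Zg16* and *Muc2*, 6 cells held a member, 4 of them *Sct*. The share there was 23.1% (interval 8.97% to 43.6%). The median depth of these clusters was 1257 and 2868 UMIs. Most of the 52 epithelial-like cells with *Sct* lay in other clusters, so *Sct* was not confined to these. The cluster led by *Pck1* held 9 of them among 138 cells, and the cluster led by *Mbl2* 9 among 184. Free RNA in the wells as a source of single UMIs was not tested.

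A single cell carried most of the *Gip*. It came from mouse B and the gate of EPCAM PDGFRa doublets and held 511 *Gip* UMIs among 2628, or 19.4% of its total, in a cluster led by tuft cell genes such as *Rgs13* and *Sh2d6*. The same cell held 12 *Chgb*, 8 *Sct* and 4 *Cck* UMIs, and no *Chga*, *Pyy* or *Gcg*. It also held UMIs of the granule genes *Scgn*, *Cpe* and *Scg3* (6, 5 and 3) and of the lineage factor *Rfx6* (2). Without it, *Gip* in epithelial-like cells came to 13 UMIs in 10 cells instead of 524 UMIs in 11, and its summed level to 3.70 CPM instead of 149 CPM.

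Another cell, of mouse H and the PDGFRa singlet gate, held 88 *Nts* UMIs among 1234, together with 10 *Sct*, 1 *Chga* and 1 *Chgb*. *Sct* thus appeared beside *Gip* in the first cell and beside *Nts* in the second. These cells were singled out after their values had been seen. Of the 8 cells with 2 or more members, 4 held just 1 *Chga* and 1 *Sct* UMI among 2954 to 6016 UMIs, and the other 2 were cells of mouse H with 2 or 3 *Chgb* UMIs.

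**Figure D4:**
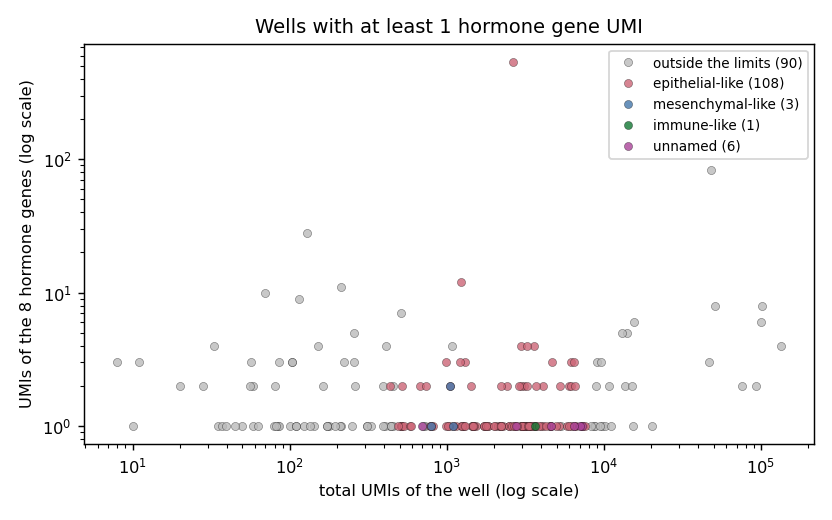
Each point is a well with a UMI of at least 1 of the 8 genes, by its total UMIs (x, log scale) and the UMIs of the 8 genes together (y, log scale), coloured by cell class, with wells outside the limits in grey. The cell with 535 hormone UMIs stands alone among the epithelial-like cells, most of which hold 1.

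Some wells outside the limits, with few or many UMIs in all, also held several hormone UMIs. Whether such a well held a single intact cell was not tested. A well of mouse D with 47781 UMIs, in the gate of EPCAM PDGFRa doublets, held 41 *Chgb*, 33 *Reg4*, 8 *Chga* and 1 *Tph1*, the enzyme that starts serotonin synthesis. A well of mouse G with 129 UMIs held 24 *Reg4* and 4 *Chgb*. In both wells *Reg4* and *Chgb* were found together and *Gip* was absent.

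Of 2 more wells of mouse G, the first held 11 *Sct* among 211 UMIs and the second 10 *Sct* among 70 UMIs, each with 1 *Nts*. A well of mouse D held 120 *Sst* among 258 UMIs (46.5%) with 4 *Gip*.

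By mouse, the share of epithelial-like cells with a member ran from 0 of 16 cells in mouse F, where the exact binomial interval for cells with a UMI reaches 20.6%, to 9.36% of 171 cells in mouse D. It was 8.47% of 567 cells in mouse B, which also held the *Gip* cell. Mice A, C, E, G and H lay between 3.12% and 6.56%. By gate it was 10.1% of 467 epithelial-like cells among EPCAM PDGFRa doublets, 10.3% of 58 among EPCAM singlets and 4.61% of 889 among PDGFRa singlets. All 6 kept cells with *Reg4* came from the first of these gates. Not every gate was sorted from every mouse, and the gates were not compared within a mouse.

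The genes most like the members across cells were found in deeper cells. The 8 epithelial-like cells with 2 or more members had a median of 3094 UMIs, against 1558 UMIs in the other 1658. The largest differences in the share of cells with a UMI were those of *Lrrc59* (100% against 26.1%), *Ctdsp2* (75.0% against 13.4%) and *Ddb1* (75.0% against 16.3%), followed by *Irf2bp2*, *Gm6272*, *Eef2*, *Gm14130*, *Mapk1ip1l*, *Eef1a1* and *Ndufa1*. These are broadly expressed genes with no hormone or granule gene among them.

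The microdissected stroma gave a last view of position along the crypt-villus axis. Its values are TPM, from which enterocyte genes were removed and which were rescaled to ppm of the remaining genes that each held under 1% of a sample, with no member among the removed genes, and sections were averaged per mouse (3 mice for the crypt, 5 for each villus zone). The samples were not free of epithelium, since the summed level of 5 epithelial markers such as *Epcam* was 588 to 7190 TPM. None of the 7 members tested differed between villus tip and crypt by limma, nor did any of the 13535 genes tested (0% higher and 0% lower at the tip). At an unadjusted p under 0.05 there were 441 genes and 0 members.

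*Gip* was at 901, 0 and 1045 ppm in the crypt of mice 1 to 3. At the villus tip it was at 76.2 and 63.2 ppm in mice 1 and 2 and listed at 0 in mice 3 to 5. Its log2 difference of tip and crypt was -4.16, with a 95% interval of -8.88 to 0.56 and an unadjusted limma p of 0.0812 (adjusted 0.991). With mouse as a replicate block it was -2.23, and without a mouse it moved between -8.36 (without mouse 2) and -1.84 (without mouse 3). High and absent values thus stood side by side within a zone.

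*Reg4* was at 84.5, 272 and 94.9 ppm in the crypt and at 35.3, 14.1, 284, 1.96 and 0 ppm at the tip of mice 1 to 5, with a log2 difference of -3.27 and an interval of -7.47 to 0.94. *Sct* was at 1075, 0 and 132 ppm in the crypt and at 46.8, 78.2, 122, 9.37 and 88.6 ppm at the tip. *Sct*, like *Chga* and *Chgb*, was above 0 at the tip of all 5 mice, whereas *Gip* and *Reg4* were not. The log2 difference of *Sct* was 0.03, with an interval of -3.92 to 3.99.

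*Chga* was at 43.5 ± 54.3 ppm in the crypt (SD, n = 3) and at 43.0 ± 40.5 ppm at the tip (SD, n = 5). *Chgb* was at 25.6 ± 15.8 and 8.28 ± 6.22 ppm, and *Cck* at 37.1 ± 51.3 and 34.4 ± 47.2 ppm. *Gcg* was at 6.27 ± 5.66 and 5.22 ± 8.43 ppm. The zones of each of these 4 genes overlapped. Over single samples, *Gip* was listed at 0 in 16 of 29 and *Gcg* in 15, whereas *Pyy* was listed at 0 in 27 of 29.

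**Figure D5:**
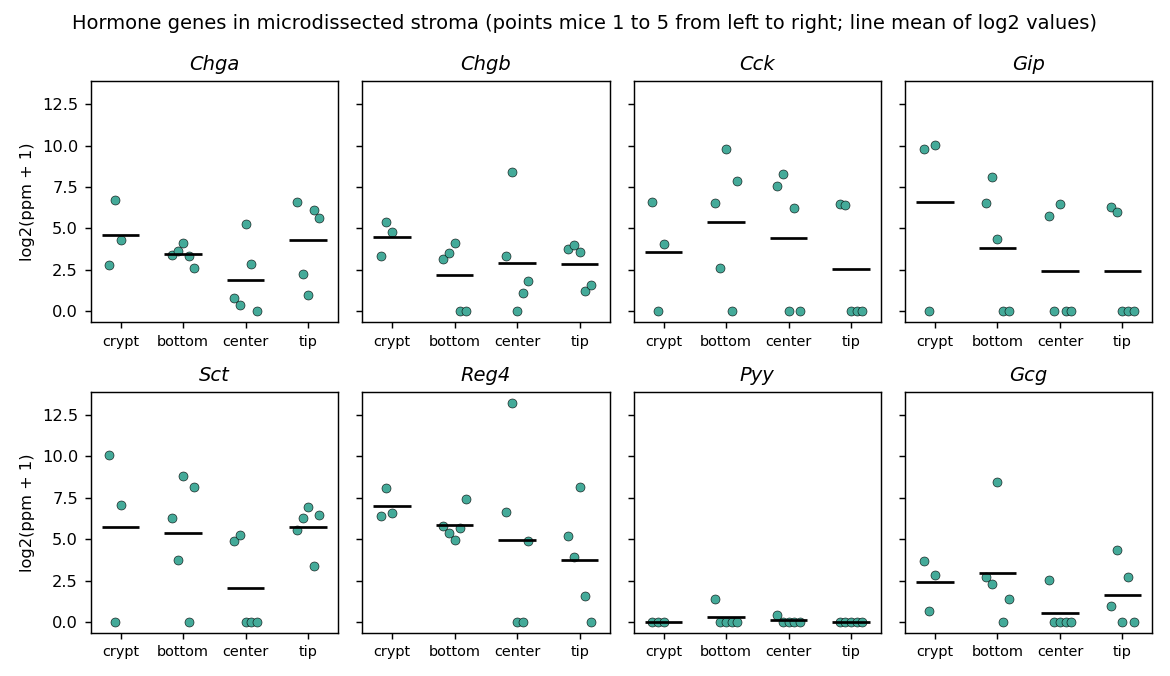
Level of the 8 genes as log2(ppm + 1) in stroma of 4 zones, 1 point per mouse (crypt 3 mice, villus zones 5 mice) and the mean as a line. *Gip* runs from 0 to 1045 ppm in the crypt and from 0 to 76.2 ppm at the villus tip, and *Pyy* does not exceed 1.56 ppm in any zone.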

How the data were processed

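Mouse epithelium libraries (8), sorted single cells (36 plates, 35 with wells in the table) and microdissected stroma (29 samples) were grouped by their labels. The authors deposited raw UMI counts per gene for epithelium and wells, made with zUMIs on GRCm38 after bcl2fastq 2.15.0.4 (submitters' notes), and TPM for stroma, made with kallisto and sleuth, which keep no depth. A plate of 352 wells that matches no sample was not used.

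Epithelium counts were fitted with edgeR 4.0.16 (TMM, robust quasi-likelihood, batch as a term) on genes above 1e-05 of a library's UMIs in at least 2 libraries, with Benjamini-Hochberg adjustment over all genes. Standard errors come from the fold change and the F statistic. Cells were clustered with Seurat 5.3.0 (resolution 2). Doublets were not called, because several gates select pairs of cells. Stroma was compared with limma 3.58.1 on log2(ppm + 1), genes with a zone mean above 5 ppm, after removal of the 420 non-ribosomal, non-mitochondrial genes among those that hold 50% of control epithelium UMIs. Promoters are RefSeq GRCm38.p6.

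The members and lists were chosen with earlier results of these data known. All members are named. One marker gene is not reported here. Of other lists, genes past the threshold and up to 3 more with a large mean level are named, and genes most like the members by their share of cells. Same-numbered DT and control libraries correlated in their deviations from the group means at 0.61, 0.415, 0.658 and 0.585. Within batches the correlation was -0.164 (batch a) and -0.0594 (batch b), so it showed no pairing of mice beyond the batch. Each test was tested on simulated data. Alternatives were DESeq2 1.42.0, other scalings, filters and thresholds, the replicate block, batches alone and left-out samples. Each epithelium library came from 1 mouse, so p-values measure the spread between mice. The interval for shares of cells is the exact binomial (Clopper-Pearson) interval at 95%.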

Additional observations from a re-analysis of the deposited data

Results flagged for a closer look

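Sample values that stood apart were looked for in 40 groups of 4 or 5 (8 genes in the DT and the control libraries and in 3 villus zones) by Dixon's ratio of the gap to the range. It flags about 1 in 20 groups by chance where values are normally distributed. The stromal values are skewed and hold many zeros, so that rate does not apply to them. Where 4 of 5 mice are at 0 and the other is not, the ratio is 1 whatever its value. None of the 16 epithelium groups and 11 of the stromal groups had such a value. In the villus center of mouse 2, *Reg4* was at 9763 ppm and *Chgb* at 339 ppm, with ratios of 0.99 and 0.973. Both means came mainly from a single section, at 19480 and 672 ppm against 45.1 and 5.87 ppm in the other section. These 2 genes also shared the hormone wells of mice D and G. In the villus bottom of mouse 3, *Gcg* was at 347 ppm and *Cck* at 909 ppm, with ratios of 0.984 and 0.745. A single section again held most of both, at 664 and 1792 ppm against 30.3 and 25.6 ppm. *Chga* at 36.9 ppm in the villus center of mouse 3 had a ratio of 0.828. *Reg4* stood apart at 174 ppm in the villus bottom of mouse 5 (0.838) and at 284 ppm in the villus tip of mouse 3 (0.876). *Gcg* stood apart in the villus tip of mouse 2 at 19.8 ppm (0.723) and in the villus center of mouse 1 at 4.76 ppm, where the other mice were listed at 0 (ratio 1). *Pyy* was above 0 only in mouse 1, in the villus bottom at 1.56 ppm and in the villus center at 0.342 ppm, each with a ratio of 1.

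Wells outside the limits on UMIs and genes, which the shares of cells in the report leave out, held 35 UMIs of *Chga*, 59 of *Chgb*, 11 of *Cck*, 45 of *Gip*, 81 of *Sct* and 88 of *Reg4*. A gene was flagged here above 3 UMIs. For *Reg4*, *Chgb* and *Cck* the number was more than in all kept cells (9, 20 and 6 UMIs). Single wells held much of it, with 41 *Chgb* and 33 *Reg4* in the well of 47781 UMIs and 24 *Reg4* in the well of 129 UMIs.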

How the results depend on the processing

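Of 277 recomputed values, 238 were classed as unchanged. For fold changes and log2 differences this means the same direction and side of the threshold, and for ratios to granins the same direction only. For counts it means a value near the main one, and for shares of cells a value inside the main interval. With library totals as scaling, filterByExpr, robust=FALSE, no batch term, the replicate block or a batch alone, 0 members passed the adjusted p of 0.05. DESeq2 called 159 genes and 2 members, edgeR without a filter 635 genes and 2 members, DESeq2 size factors in edgeR 1 member, and the adjusted p of 0.2 gave 214 genes and 2 members. Without a batch term 1 gene passed, with the replicate number as a block 3, in batch a alone 0 and in batch b alone 5. Leaving out a library gave 3 to 41 genes and 0 to 1 members, the lowest without control library 1. It moved *Chgb* between -0.47 and 0.024 and *Gcg* between -0.53 and 0.043 (log2), positive only without control library 4 and DT library 4. Per UMI of *Chgb* *Gcg* was at 0.25 and per UMI of both granins at 0.28. The share of epithelial-like cells with a member was 4.77% from 200 UMIs and 100 genes, 1.91% after thinning, 1.5% where 2 UMIs of a member were asked for, and 5.46% to 6.93% without a mouse. In stroma, 2 genes passed with no filter on low values. The log2 difference of tip and crypt moved between -1.79 and 1.27 for *Chga* and between -2.96 and 2.25 for *Sct* without a mouse. *Cck* was at 0.21 with mouse as a replicate block, which changed no other call of a member. *Sct* was at -0.61 with a pseudocount of 5 and at -0.18 in the deposited TPM. The cause of these changes was not tested. Depth limits *Pyy* and *Gcg* most, with 40 and 163 UMIs in all control libraries, and TPM carry no depth.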
